A study of Homo sapiens with 6 samples.

Results

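DNA repair and replication checkpoint genes were described in U87-2M1 glioma cells transduced with a miR-10b decoy vector, set against cells transduced with a control decoy vector. The genes were 47 named members of the Fanconi, recombination, mismatch repair and checkpoint pathways. A member was read from the probe sets whose only gene symbol in the platform annotation was that member, and the brightest probe set over the 6 arrays stood for the gene. On these terms 41 members were found among 19775 genes, and 40 of the 41 passed the filter on dim genes. FANCA, FANCD2, RBBP8 and BRCA2 were not analysed here. The same holds for PMS2, whose probe sets also carry the symbol PMS2CL, and for ATRIP, whose probe sets also carry TREX1. The only XRCC3 probe set lay under the filter level of 15.6 signal units on average and was not tested.

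U87-2M1 is a subline of the human glioma line U87 that was taken from an experimental lung metastasis assay in animals and then grown in culture. The miR-10b decoy group was 3 arrays of cells that had received a baculoviral vector (derived from an insect virus) with the miR-10b decoy, a transcript meant to bind that microRNA. The control decoy group was 3 arrays of cells that had received the vector with a control decoy. Both groups were passage 4 cells of this subline, kept in hypoxia, and neither the uptake of the vectors nor miR-10b itself was measured on these arrays. The labels do not say that replicates were separate cultures, so the p-values reflect only how these samples vary, possibly for technical reasons.

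Values are array signal intensities, made comparable between arrays by quantile normalization and called normalised signals below. Log2 differences are miR-10b decoy minus control decoy on the log2(signal + 7) scale, which understates the change of dim genes. A gene was called higher or lower at an adjusted p under 0.05 in limma's moderated test, adjusted over all 13842 genes tested. The deposited signals were brightest on control decoy replicate 3, with a mean (trimmed by 2% at each end) of 192 against 155 to 163 on the other arrays. The median log2 difference over all genes was -0.02 after normalization and -0.14 in the values as deposited. Precision is limited by having 3 arrays a group. Of the markers that check the cell type, VIM, CD44 and NES lay well over the filter level and SOX2 just over it, and GFAP and S100B lay under it on every array. NES was called lower (-0.38, adjusted p = 0.00772). OLIG2 lay under the level on average and on all 3 control decoy arrays, but over it on all 3 miR-10b decoy arrays. Under it on average lay 3 of 5 epithelial markers (EPCAM, CDH1 and KRT19), 2 of 4 endothelial markers (VWF and CDH5) and 2 of 3 leukocyte markers (PTPRC and CD14). KRT8, KRT18, PECAM1, KDR and CD3E lay over it, and of these PECAM1 was called lower (-0.40, adjusted p = 0.0135).

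Cells meet damaged or stalled DNA with several linked pathways. The Fanconi core complex attaches ubiquitin to the FANCI and FANCD2 proteins at interstrand crosslinks. Recombination proteins resect a broken DNA end and pair it with the sister chromatid, which serves as a template. The ATM and ATR kinases signal breaks and stalled forks through CHEK2 and CHEK1, which hold back the cell cycle while repair proceeds. Many of these genes are transcribed in step with the cell cycle, in part through E2F factors. In glioma the pathways are studied for their part in resistance to radiation and alkylating drugs.

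Of the 40 members tested, 19 were lower with the miR-10b decoy, 4 were higher and 17 did not pass. Over all genes tested 17.3% were lower and 16.6% were higher. The members' share of 47.5% lower lay well above this background and their share of 10% higher lay below it. The members were chosen with earlier results of these data known, so this contrast describes the list and is no test of it. The lower genes came from the Fanconi pathway (FANCL, FANCI, BRIP1), end resection (EXO1, DNA2), strand exchange (RAD51AP1, BARD1), theta-mediated end joining (POLQ), break sensing (PARP1) and the checkpoint (CHEK1, TIMELESS). The 4 higher genes were FANCF, RAD50, MRE11 and PALB2. The median log2 difference was -0.30 over the 40 members, against -0.02 over all genes, and the members ran between -0.85 (FANCB) and 0.77 (FANCF). The 19 lower members had changes of -44.4% (FANCB) to -12.4% (USP1) on the scale with the offset. In RNA from whole cultures, fewer cells in a cell cycle phase and less RNA per cell cannot be told apart. The count of lower members ranged between 14 and 20 over the 16 alternative settings tried.

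**Figure D1:**
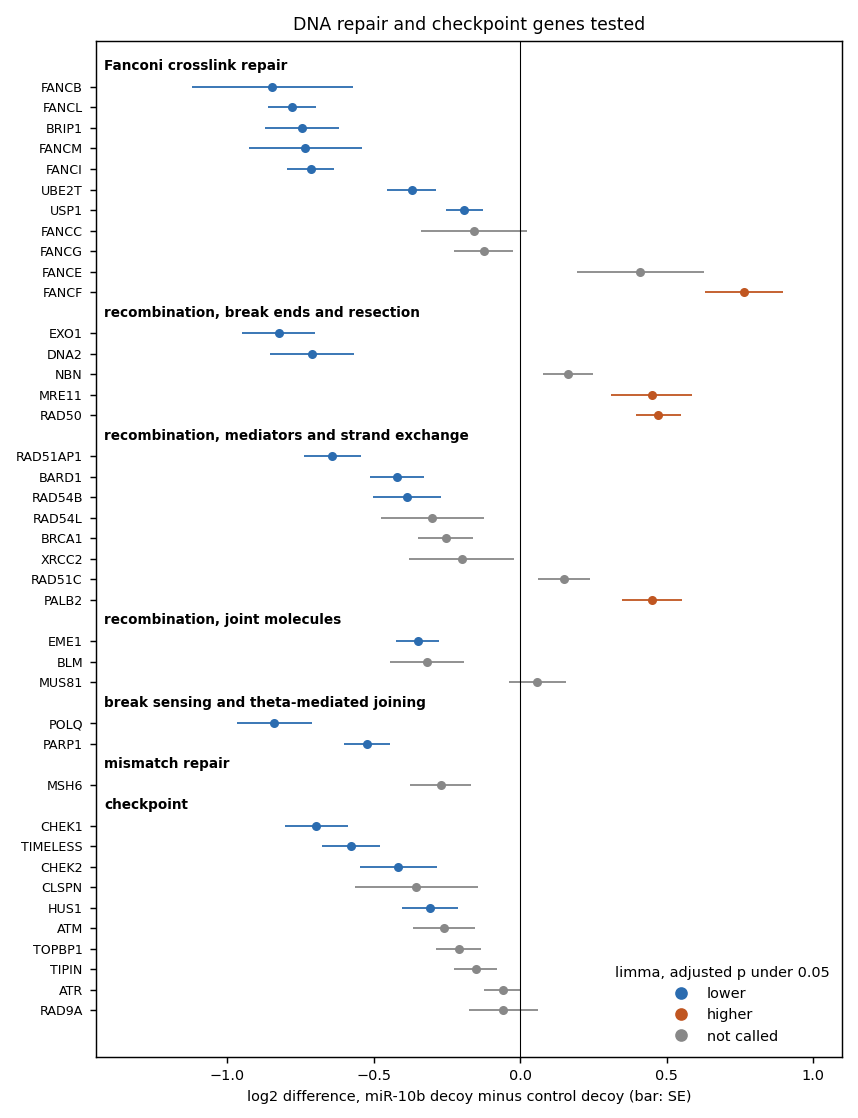
Log2 difference (miR-10b decoy minus control decoy, x axis) of the 40 members tested, grouped by role down the page, with bars for the standard error and colours for the call. Of the points, 32 lie left of 0, and 19 of these were called lower.

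The members' promoters were searched for words recognised by cell cycle transcription factors. The E2F-type word TTNNCGC, in which each N was C or G, was looked for on both strands of a window of 250 bases before to 50 bases after each start in the RefSeq table (GRCh38.p14). Of the 40 members tested 35 had a promoter there, and 21 of these (60.0%) held an E2F-type word, against 19.5% of 11128 tested genes with a promoter and 13.1% of all 27305 promoters in the table. The word was about as common in members called lower (10 of 15) as in members that did not pass (10 of 16), and 1 of the 4 higher members held it. The CHR element TTTGAA was present in 5 of the 35 promoters (14.3%), against 10.4% of tested genes. The CCAAT box was present in 19 (54.3%), against 36.5%. A match describes letters in a window and is not a measured binding site.

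Below are the last 120 bases before the start of 4 members called lower, with the E2F-type word in capitals, and of RAD50, a member called higher whose window held no such word. They run 5′ to 3′ on the gene's own strand, from RefSeq.
RAD51AP1, plus strand, chr12:4538770-4538889: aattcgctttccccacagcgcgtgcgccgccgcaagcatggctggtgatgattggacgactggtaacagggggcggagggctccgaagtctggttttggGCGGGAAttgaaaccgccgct
PARP1, minus strand, chr1:226408094-226408213: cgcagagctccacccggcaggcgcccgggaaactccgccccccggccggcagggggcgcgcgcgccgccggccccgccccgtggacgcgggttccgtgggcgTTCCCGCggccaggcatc
EME1, plus strand, chr17:50373109-50373228: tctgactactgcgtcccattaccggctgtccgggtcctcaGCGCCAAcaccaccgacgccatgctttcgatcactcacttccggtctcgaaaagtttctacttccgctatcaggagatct
FANCL, minus strand, chr2:58241326-58241445: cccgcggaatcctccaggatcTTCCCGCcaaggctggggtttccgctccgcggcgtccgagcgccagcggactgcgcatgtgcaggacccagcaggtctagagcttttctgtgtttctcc
RAD50, plus strand, chr5:132556857-132556976: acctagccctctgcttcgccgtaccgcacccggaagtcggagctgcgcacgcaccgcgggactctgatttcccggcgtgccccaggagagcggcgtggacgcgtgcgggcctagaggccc
In RAD51AP1 and PARP1 the word begins 21 and 18 bases before the start, and in EME1 and FANCL it begins 80 and 99 bases before it. These are examples only. CHEK1 and CHEK2, also called lower, held no such word in the window, and FANCF, called higher, did hold it.

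Within the Fanconi pathway, 7 of 11 members tested were lower, 1 was higher and 3 did not pass. As shares, 63.6% were lower and 9.09% higher, against 17.3% and 16.6% of all genes. FANCL, the ubiquitin ligase subunit of the core complex, had normalised signals of 685, 827 and 676 with the miR-10b decoy, against 1321, 1238 and 1199 with the control decoy. Its groups did not overlap, and the log2 difference was -0.78 (SE 0.08, adjusted p = 3.18e-05). FANCI, which is ubiquitinated together with FANCD2, had 351, 389.7 and 348 with the miR-10b decoy, against 565, 624 and 612 with the control decoy. All 3 decoy arrays lay below all 3 control arrays, and the log2 difference was -0.72 (SE 0.08, adjusted p = 4.48e-05). The other 2 FANCI probe sets, over the filter level too, gave -0.78 and -0.60, so the direction did not rest on 1 probe set. BRIP1, a helicase that binds BRCA1 and acts downstream in crosslink repair, had 119, 104 and 109 with the miR-10b decoy, against 178, 169.5 and 225 with the control decoy. These groups were also apart, with a log2 difference of -0.74 (SE 0.13, adjusted p = 0.000837).

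UBE2T, the ubiquitin-conjugating enzyme that works with FANCL, was lower by less, with a log2 difference of -0.37 (SE 0.08, adjusted p = 0.00493). FANCM, which anchors the core complex to DNA, was lower at -0.73 (adjusted p = 0.012), and its signals were dim at 31.3 ± 4.94 with the miR-10b decoy and 56.4 ± 4.16 with the control decoy (SD, n = 3 each). Its second probe set over the filter level was about as bright (mean deposited signal 44.19 against 44.27) and gave -0.10 with overlapping groups. FANCB, a core complex scaffold, had 1 decoy array under the filter level. Its log2 difference was -0.85 (SE 0.27, adjusted p = 0.0327). Its second probe set over the filter level gave -0.18 with overlapping groups. Averaging all its probe sets, including those under the level, ended the call (-0.37, adjusted p = 0.169). It also ended with no moderation (adjusted p = 0.0565) and in every fit that dropped an array other than miR-10b decoy replicate 1 (adjusted p between 0.0502 and 0.0995). USP1, which removes ubiquitin from FANCI and FANCD2, was lower at -0.19 (adjusted p = 0.0366), the smallest difference among the called members. Its second probe set over the filter level gave -0.03 with overlapping groups. The call ended with the mean of both probe sets (-0.11, adjusted p = 0.459), after centring (-0.11, adjusted p = 0.29), in the values as deposited (adjusted p = 0.0948), with no intensity trend (0.107) and with no moderation (0.094). It also ended on dropping control decoy replicate 2 (adjusted p = 0.153), control decoy replicate 3 (0.0701), miR-10b decoy replicate 1 (0.118) or miR-10b decoy replicate 3 (0.0558).

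FANCF, an adaptor subunit of the core complex, was the exception in direction. It had 191, 197 and 212 with the miR-10b decoy, against 102, 103 and 143 with the control decoy. Every decoy array lay above every control array, with a log2 difference of 0.77 (SE 0.13, adjusted p = 0.000994). Its second probe set, also over the filter level, had a log2 difference of -0.20 with all 3 decoy arrays below the control arrays, and with the mean of both probe sets the call ended (0.28, adjusted p = 0.0926). FANCF is therefore given with both directions. The core complex members FANCE (0.41, adjusted p = 0.173), FANCC (-0.16, adjusted p = 0.541) and FANCG (-0.12, adjusted p = 0.379) did not pass, and their groups overlapped.

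**Figure D2:**
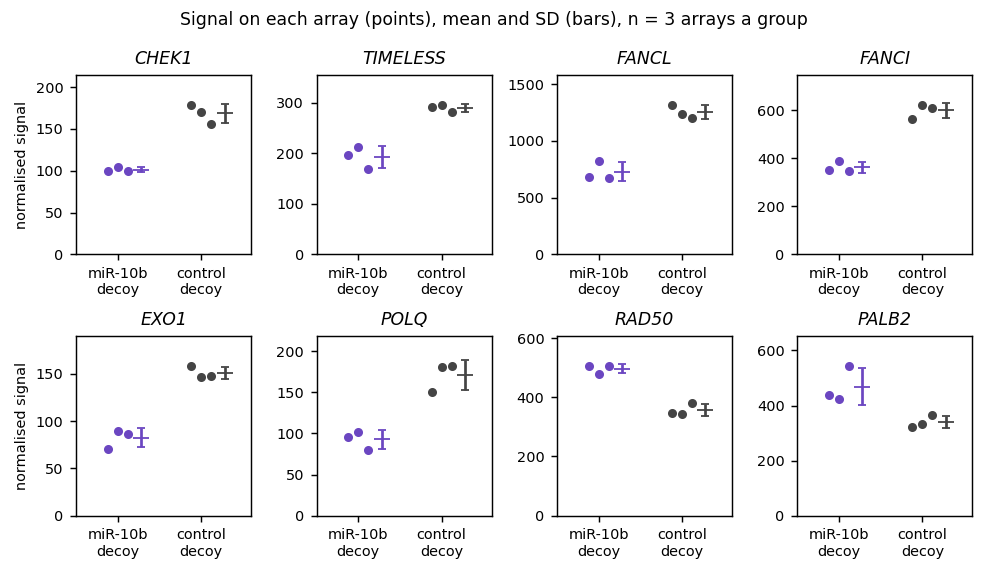
Normalised signal (y axis, starting at 0) on each of the 3 miR-10b decoy and 3 control decoy arrays for 8 members, with the mean and SD beside the points. In CHEK1, TIMELESS, FANCL, FANCI, EXO1 and POLQ every decoy array lies below every control array, and in RAD50 and PALB2 every decoy array lies above them.

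Of the 5 genes tested that act on broken DNA ends, 2 were higher, 2 were lower and 1 did not pass. Over all genes 16.6% were higher and 17.3% lower, and 5 genes are too few to set against these shares. RAD50, MRE11 and NBN encode the complex that first binds and trims an end, while EXO1 and DNA2 encode nucleases that resect it over a long range. RAD50 had 506, 479 and 505 with the miR-10b decoy, against 347, 344 and 379 with the control decoy. It was higher in 3 of 3 decoy arrays than in any control array, with a log2 difference of 0.47 (SE 0.08, adjusted p = 0.000627). Its other 2 probe sets over the filter level gave 0.60 and 0.67. MRE11, the nuclease of the complex, had 146, 172 and 189 with the miR-10b decoy, against 101, 135 and 131 with the control decoy. These groups were apart by a small margin, and the log2 difference was 0.45 (SE 0.14, adjusted p = 0.0258). That call ended in the values as deposited (0.34, adjusted p = 0.101), with no filter, with no intensity trend and with no moderation. It also ended with all its probe sets averaged (0.12, adjusted p = 0.781), but the other MRE11 probe sets lay under the filter level. Dropping control decoy replicate 1 (adjusted p = 0.0954) or replicates 2 (0.0739) and 3 (0.0989) of the miR-10b decoy in turn ended it too. NBN, the adaptor that recruits ATM, did not pass at 0.16 (adjusted p = 0.169), and its 4 probe sets over the filter level ran between -0.30, with all decoy arrays below the control arrays, and 0.16. With the mean of all its probe sets NBN was at -0.15 (adjusted p = 0.204). NBN passed upward after centring (adjusted p = 0.0433) and without control decoy replicate 3 (0.0319).

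EXO1 had 71.1, 89.5 and 86.8 with the miR-10b decoy, against 159, 146 and 147 with the control decoy. The groups lay far apart, with a log2 difference of -0.82 (SE 0.12, adjusted p = 0.000397). EXO1 also removes the mismatched strand in mismatch repair. DNA2, a nuclease and helicase, had 56.0, 78.1 and 68.3 with the miR-10b decoy, against 112, 119 and 111 with the control decoy. It too was lower on all 3 decoy arrays, with a log2 difference of -0.71 (SE 0.14, adjusted p = 0.00261).

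Among the recombination mediators and strand exchange genes, 3 of 8 members tested were lower, 1 was higher and 4 did not pass. Over all genes 17.3% were lower and 16.6% higher, and 8 genes are too few to set against these shares. RAD51AP1, which stimulates strand pairing, had 278, 309.9 and 247 with the miR-10b decoy, against 462, 411 and 436 with the control decoy. The groups did not overlap, and the log2 difference was -0.64 (SE 0.10, adjusted p = 0.000373). BARD1, the partner that stabilises BRCA1, had 153, 161 and 155 with the miR-10b decoy, against 203, 212 and 218 with the control decoy. The arrays of each group lay close together, with a log2 difference of -0.42 (SE 0.09, adjusted p = 0.00454). Its other probe sets over the filter level gave -0.73 and -0.01. RAD54B, a helicase-like motor of strand exchange, had 107, 115 and 96.9 with the miR-10b decoy, against 134, 150.0 and 139 with the control decoy. Its log2 difference was -0.39 (SE 0.12, adjusted p = 0.0232), and the call ended after centring, with no filter, and on dropping control decoy replicate 2 (adjusted p = 0.0872) or replicate 3 of the miR-10b decoy (0.072).

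PALB2 bridges BRCA1 and BRCA2 and was the higher member of this group. It had 439, 423 and 544 with the miR-10b decoy, against 322, 332 and 364 with the control decoy. Replicate 3 of the decoy was the highest array, the groups were apart, and the log2 difference was 0.45 (SE 0.10, adjusted p = 0.00506). The call ended with no moderation of the variances (adjusted p = 0.0785). BRCA1, a ubiquitin ligase that promotes recombination, had 338, 314 and 276 with the miR-10b decoy, against 389.7, 348 and 372 with the control decoy. Every decoy array lay below every control array, but the log2 difference of -0.25 (SE 0.09, adjusted p = 0.0548) missed the threshold. BRCA1 passed downward with the mean of its 2 probe sets (-0.44, adjusted p = 0.00898), when dim genes up to the 50th percentile were left out (adjusted p = 0.0412) and when miR-10b decoy replicate 1 was dropped (0.0323). RAD54L (-0.30, adjusted p = 0.219), XRCC2 (-0.20, adjusted p = 0.429) and RAD51C (0.15, adjusted p = 0.217) had overlapping groups, and the 2 RAD51C probe sets had opposite signs. XRCC3 was near background, with 3.41, 20.5 and 25.1 with the miR-10b decoy and 2.52, 4.10 and 4.41 with the control decoy, and no fold is given.

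Of the 3 genes tested that process joined DNA molecules, 1 (EME1) was lower and 2 did not pass. Over all genes 17.3% were lower, and 3 genes are too few to set against this share. EME1 is the partner of the nuclease MUS81, and it had 397, 419 and 398 with the miR-10b decoy, against 523, 537 and 494 with the control decoy. The groups did not overlap, and the log2 difference was -0.35 (SE 0.07, adjusted p = 0.00314). Its second probe set gave -0.65, also with the groups apart. MUS81 itself had 374, 332 and 371 with the miR-10b decoy, against 315, 331 and 391 with the control decoy. These groups overlapped, with a log2 difference of 0.06 (SE 0.10, adjusted p = 0.682). BLM, a helicase that dissolves joint molecules, had 117, 123 and 95.4 with the miR-10b decoy, against 129, 152 and 141 with the control decoy. All its decoy arrays lay below the control arrays, but the log2 difference of -0.32 (SE 0.13, adjusted p = 0.0749) did not pass, except in the values as deposited (adjusted p = 0.0416).

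Both remaining break repair genes were lower. Over all genes 17.3% were lower, and 2 genes are too few to set against this share. POLQ, the polymerase theta that joins ends through short stretches of matching sequence, had 95.9, 102 and 80.3 with the miR-10b decoy, against 150.3, 181 and 182 with the control decoy. The groups were well apart, with a log2 difference of -0.84 (SE 0.13, adjusted p = 0.000436), although the other, dim POLQ probe set gave -0.23. PARP1, the enzyme that marks DNA breaks with ADP-ribose chains, had 457, 478 and 521 with the miR-10b decoy, against 668, 756 and 677 with the control decoy. Its groups did not overlap either, and the log2 difference was -0.52 (SE 0.08, adjusted p = 0.000382).

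Of the mismatch repair members only MSH6, part of the heterodimer that recognises mispaired bases, was read. It had 769.9, 1043 and 809 with the miR-10b decoy, against 1147, 1002 and 998 with the control decoy. The decoy arrays spread widely and the groups overlapped through miR-10b decoy replicate 2, with a log2 difference of -0.27 (SE 0.10, adjusted p = 0.0645). Without that array MSH6 passed downward (-0.40, adjusted p = 0.00511), and it also passed in the values as deposited (adjusted p = 0.0312). Its second probe set over the filter level gave -0.53, with all decoy arrays below the control arrays. With the mean of all its probe sets, including those under the filter level, MSH6 was at -0.03 (adjusted p = 0.924).

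Of the 10 checkpoint members tested, 4 were lower, 0 were higher and 6 did not pass, against 17.3% lower and 16.6% higher over all genes. On the chosen probe sets all 10 log2 differences were negative, with a median of -0.285, against -0.02 over all genes. Those of ATR and RAD9A turned positive after centring (0.05 and 0.01). ATR (0.04), ATM (0.03) and CLSPN (0.22) each had a further probe set over the filter level that was positive, with overlapping groups. The other further checkpoint probe sets over the level were negative. CHEK1, the effector kinase of ATR, had 99.95, 105 and 99.3 with the miR-10b decoy, against 179, 170.5 and 156 with the control decoy. The decoy arrays lay within a narrow range well below the control arrays, and the log2 difference was -0.70 (SE 0.11, adjusted p = 0.000485). Its other 2 probe sets over the filter level gave -0.40 and -0.59. TIMELESS, which with TIPIN protects stalled forks, had 197, 211 and 169 with the miR-10b decoy, against 292, 296 and 282 with the control decoy. The groups were apart, with a log2 difference of -0.58 (SE 0.10, adjusted p = 0.000935). TIPIN had -0.15 (adjusted p = 0.137), its decoy arrays also below the control arrays.

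CHEK2, the effector kinase of ATM, had 184, 168 and 131 with the miR-10b decoy, against 196, 209 and 243 with the control decoy. The groups came close to each other, and the log2 difference was -0.42 (SE 0.13, adjusted p = 0.03). It no longer passed under centring (adjusted p = 0.0551), under no filter (0.0675), with each gene's probe sets averaged (0.054), with no intensity trend (0.0868), with no moderation (0.161), or on dropping replicate 2 or 3 of the control decoy (0.0618 and 0.109) or of the miR-10b decoy (0.053 and 0.105). HUS1, a subunit of the checkpoint clamp, had 212, 215 and 213 with the miR-10b decoy, against 238, 288 and 273 with the control decoy. Its log2 difference was -0.31 (SE 0.10, adjusted p = 0.026). The call ended when all its probe sets, including a probe set under the filter level, were averaged (-0.12, adjusted p = 0.512). It also ended after centring (adjusted p = 0.108), with no moderation (0.0686) and in every fit that dropped an array other than control decoy replicate 1 (adjusted p between 0.0537 and 0.111). RAD9A, another clamp subunit, had -0.06 (adjusted p = 0.742).

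The apical kinases did not pass. ATR had 574, 580.1 and 593 with the miR-10b decoy, against 600.3, 610.1 and 612 with the control decoy. These values were very close, and although all decoy arrays lay below the control arrays the log2 difference was -0.06 (SE 0.06, adjusted p = 0.511). ATM had 259, 216 and 254 with the miR-10b decoy, against 288, 327 and 264 with the control decoy. Here the arrays of the groups nearly met, with a log2 difference of -0.26 (SE 0.11, adjusted p = 0.0782), and ATM passed downward without control decoy replicate 3 (adjusted p = 0.0467). TOPBP1, which activates ATR, had -0.21 (adjusted p = 0.0541), and passed without control decoy replicate 3 (0.043), under the stricter filter (0.0409) and with each gene's probe sets averaged (0.047). CLSPN, which presents CHEK1 to ATR, had -0.35 (adjusted p = 0.226) with overlapping groups, and passed without control decoy replicate 3 (-0.60, adjusted p = 0.0263), the control array on which it was dimmest.

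**Figure D3:**
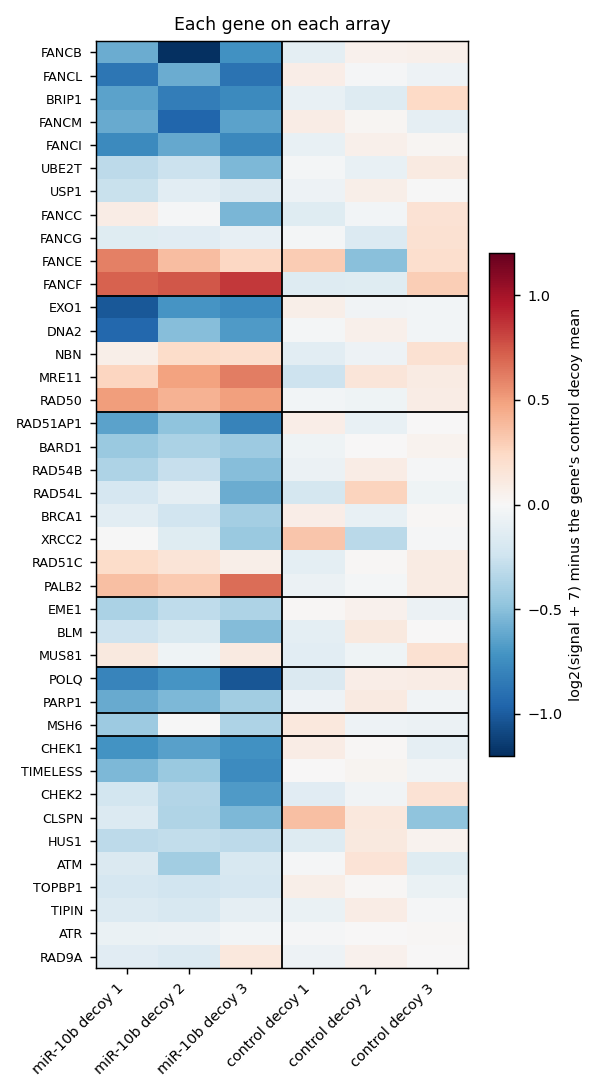
Log2(signal + 7) of each member tested minus its control decoy mean, for the 3 miR-10b decoy arrays and the 3 control decoy arrays, with lines between the role groups in the order used for the log2 differences. Blue is below and red above the control decoy mean. In 25 rows all 3 decoy arrays lie below all 3 control arrays, and the 4 members called higher (FANCF, MRE11, RAD50 and PALB2) are red on all 3 decoy arrays.

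Over the members, miR-10b decoy replicate 3 lay lowest. The median over the 40 members of the log2 signal minus the control decoy mean was -0.23, -0.24 and -0.43 on miR-10b decoy replicates 1, 2 and 3, and -0.06, 0.01 and 0.01 on control decoy replicates 1, 2 and 3. All 3 decoy arrays lay below all 3 control arrays in 25 members, against 24.1% of all genes, and above them in 4 members, against 22.3% of all genes. As shares of the 40 members these counts are 62.5% and 10.0%. The groups of the remaining 11 members overlapped. Without miR-10b decoy replicate 3 the members' median log2 difference was -0.24, with 14 lower and 3 higher. In that fit 2045 of all 13842 genes were lower and 1919 higher.

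Several members were read by more than 1 probe set. There were 87 probe sets for the 41 members, and 21 members had more than 1 over the filter level. The members called higher or lower had 17 further probe sets over the filter level, and 16 of these had the sign of the chosen one. The exception was the FANCF probe set described above. Sign alone was counted, and its share over all genes was not computed. Among those with the same sign, probe sets of BARD1 (-0.01), USP1 (-0.03), FANCM (-0.10), FANCB (-0.18), HUS1 (-0.24) and BRIP1 (-0.61) had overlapping groups. The groups of the others were apart. Among members that did not pass, ATM had a further dim probe set at -1.17, against 0.03 and -0.09 on 2 others.

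**Figure D4:**
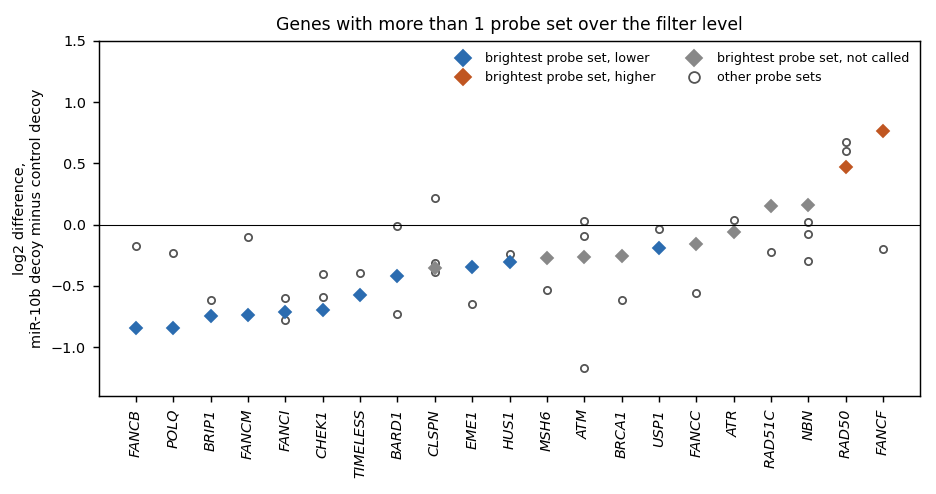
Log2 difference (miR-10b decoy minus control decoy, y axis) of every probe set over the filter level in the 21 members with more than 1, the brightest as a filled diamond coloured by its call and the others as open circles. RAD50, FANCI, CHEK1 and EME1 keep their sign in every probe set shown, and FANCF has 1 probe set on each side of 0. NBN, RAD51C, CLSPN, ATM and ATR, which were not called, also have probe sets on both sides of 0.

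A wider list held DNA repair genes outside the members. They came from end joining, base and nucleotide excision, translesion synthesis and direct reversal, with further mismatch repair, recombination and replication stress genes. Of 81 tested, 22 (27.2%) were lower and 8 (9.88%) were higher, against 17.3% lower and 16.6% higher over all genes. Their median log2 difference was -0.08. In the values as deposited 23 were lower and 2 higher, against 2561 lower and 1094 higher of all 13842 genes. After centring 14 were lower and 10 higher, against 1747 lower and 2860 higher of all genes. Whether the share lower differs from that of the 40 members was not tested. The mismatch repair genes MSH3 (-0.05, adjusted p = 0.828), MLH3 (0.18, adjusted p = 0.254) and PMS1 (0.23, adjusted p = 0.137) did not pass. PMS1 passed upward after centring and without miR-10b decoy replicate 1. The subunits of RPA, which coats the exposed strand and recruits ATR, were all lower, with RPA1 at -0.36, RPA2 at -0.49 and RPA3 at -0.48 (adjusted p = 0.00184, 0.000476 and 2.76e-05). NEIL3, a glycosylase that also unhooks crosslinks, had normalised signals of 44.0, 58.5 and 55.4 with the miR-10b decoy, against 106, 119 and 124 with the control decoy. Its log2 difference was -1.06 (SE 0.15, adjusted p = 0.000247). FEN1, the flap nuclease of replication and base excision, was lower at -0.53 and the helicase RECQL at -0.45. CETN2, a centrin that also belongs to a damage recognition complex of nucleotide excision repair, was lower at -0.32. The glycosylase MUTYH was higher at 0.61 and RAD23B, a damage recognition partner of XPC, at 0.31, the last losing its call in the values as deposited and with the mean of all probe sets. RECQL and MUTYH lost theirs with no moderation.

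Markers of proliferation moved with the members. Of 12 such genes 10 were lower and 0 higher, against 17.3% lower and 16.6% higher over all genes. Their median log2 difference was -0.53. CDK1, the mitotic kinase, had 443, 498 and 449 with the miR-10b decoy, against 856, 893 and 881 with the control decoy. MCM2 (-0.02, adjusted p = 0.89) and E2F1 (-0.06, adjusted p = 0.918) did not pass. The part of proliferation in the members' differences was not tested. The 3'/5' ratio of the actin control probe sets, which reflects RNA integrity, was 8.54 ± 1.77 with the miR-10b decoy and 5.73 ± 0.47 with the control decoy (SD, n = 3 each, two-sided exact permutation p = 0.1, which is the lowest value 3 against 3 arrays can give). That of GAPDH was 0.943 ± 0.007 with the miR-10b decoy and 0.945 ± 0.019 with the control decoy. The part of RNA integrity in the members' differences was not tested.

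**Figure D5:**
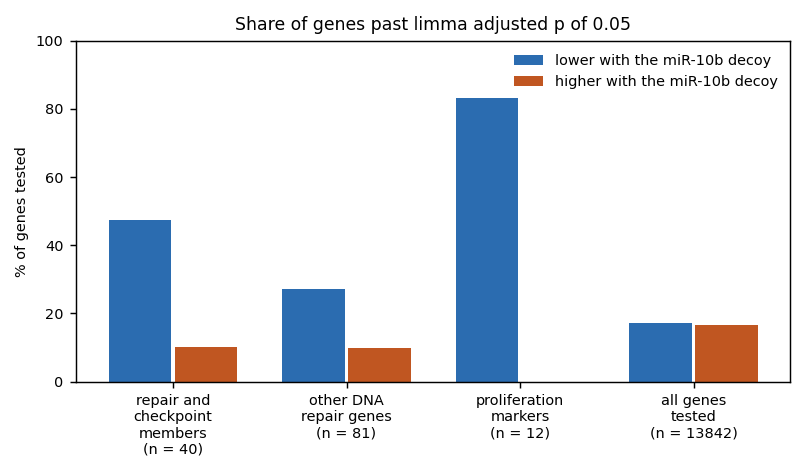
Share of genes tested (y axis, percent) called lower or higher with the miR-10b decoy by limma, for the repair and checkpoint members, the other DNA repair genes, the proliferation markers and all genes. The share called lower is 47.5% of members, 27.2% of other repair genes, 83.3% of proliferation markers and 17.3% of all genes. The members and lists were chosen with earlier results of these data known.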

How the data were processed

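RNA of 6 samples was measured on arrays of 54675 probe sets. The deposited values are linear signal intensities that the submitters' processing notes credit to MAS5. No version or scaling target is given in the sources used here. Per the labels' protocols, total RNA was extracted with TRIzol and 0.25 µg was turned into biotin-labelled cRNA. Groups and replicate numbers came from the sample titles.

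Of the probe sets, 41091 carried 1 gene symbol and were no control probe set, 1801 carried several symbols and 11777 none. Signals were turned into log2(signal + 7) and quantile-normalized, since 1 array was brighter than the others. Each of 19775 genes was represented by its probe set of highest mean deposited signal. A filter at the 30th percentile of that mean kept 13842 genes. Groups were tested in limma 3.58.1 under R 4.3.3 (lmFit, then eBayes with trended prior variance). Its two-sided p-values were adjusted by Benjamini-Hochberg over all genes tested, and there were 7.67 prior and 4 residual degrees of freedom. The procedure was also run on simulated data in which far fewer genes changed than were called here. That run therefore does not bear on the balance of lower and higher genes. Printed signals are normalised values turned back to the linear scale.

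The members and lists were chosen with earlier results of these data known. In each role group up to 4 members with the smallest p, and 10 fixed genes where analysed, are given on every array. Of the fixed genes, BRCA2, FANCD2 and PMS2 were not analysed. Of the other repair genes, the 8 with the smallest p are named, with RPA1, MSH3, MLH3 and PMS1 added. Alternatives were the deposited and median-centred scalings, 2 offsets, 2 filters, the mean of all probe sets, no trend, no moderation, the replicate number as a block, and each array left out. The mean of all probe sets took in those under the filter level. Promoter sequences came from RefSeq (GRCh38.p14), at the first start listed for each gene.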

Additional observations from a re-analysis of the deposited data

How the results depend on the processing

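Of the 23 called members, 14 passed in each of the 16 alternative settings that tested them (15 for FANCM, which the stricter filter left out) and 9 lost their call in 1 or more, and 0 changed sign in any of them. With 1 array left out, 6 of the 23 lost their call in 1 or more of the fits (FANCB, USP1, MRE11, RAD54B, CHEK2 and HUS1), and the lower members numbered from 14 to 18 and the higher ones from 3 to 5. Of all genes, the same fits called from 1833 to 2147 lower and from 1872 to 2147 higher. The lower members numbered 20 in the values as deposited and 15 with array medians centred. The higher members numbered 2 with the mean of all probe sets (FANCF and MRE11 not passing) and 2 with no moderation (MRE11 and PALB2 not passing). Without moderation the call of UBE2T also ended (adjusted p = 0.0823).

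Over all genes, 2399 were lower and 2293 higher. The split was 2561 lower and 1094 higher in the values as deposited, and 1747 lower and 2860 higher with array medians centred, so the overall balance depended on the scaling. The counts were 1575 lower and 1462 higher with the mean of all probe sets, and 1377 lower and 1449 higher with no moderation. Of the other repair genes, 14 were lower after centring, 10 lower and 4 higher with no moderation, 2 higher in the values as deposited and 4 higher with the mean of all probe sets.

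Arrays that share a replicate number did not deviate together (correlations of 0.03, -0.03 and -0.02 for numbers 1, 2 and 3). With the replicate number as a block, 17 members were lower and 4 higher, the calls of FANCB (adjusted p = 0.0518) and CHEK2 (0.0507) ending. FANCB, at a mean signal of 25.7, lay near the filter level. The causes of these shifts were not tested.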
